A study of Mus musculus with 8 samples.

Results

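Bdnf encodes brain-derived neurotrophic factor, a secreted growth factor that neurons release and that acts through the TrkB receptor. The mouse gene lies on chromosome 2, and the window examined, chr2:109505000-109575000 on the mm9 build, was set to hold all of its alternative promoters and its coding exon. Members were the regions of the deposited count table that overlapped the window, 2 of 11304, and all peaks listed there in the 8 peak lists, 118 in total. Sono-seq was the assay: fixed chromatin is broken by ultrasound and sequenced directly, with no antibody step, and open stretches, which shear more readily, give more reads. The conditioned group was 4 libraries of mouse hippocampus collected 30 min after contextual fear conditioning, in which an animal learns to link a chamber with 1 foot shock (2 s, 1.5 mA). The control group was 4 libraries of hippocampus from mice with the same 3 days of handling and no training, collected at a matching hour. The animals were C57BL/6J males, 2 months old, for which the labels name no transgene or mutation, and the tissue was unsorted hippocampus. In such bulk tissue, a change in few cells and a small change in many cells cannot be told apart.

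The Bdnf gene is known for its unusual layout. Several short first exons, each with a promoter of its own, are spliced to 1 shared coding exon near the 3′ end, so that all transcripts give the same protein precursor. In rodents the exons I, II and III lie close together at the 5′ end, exons IV, V and VI form a second group well inside the gene, and the coding exon is the last. Promoters I and IV are the ones best known for their response to neuronal activity, through calcium signalling and factors such as CREB, which binds the cAMP response element (CRE).

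The RefSeq table at hand (GRCm38.p6) lists 7 promoter windows for Bdnf, each running from 250 bases before to 50 bases after a start site. In that build the start sites lay at 0, 2.33, 17.7, 18.3, 19.7, 34.7 and 48.2 kb from the most 5′ one, which gives 2 sites at the 5′ end, a group of 3 sites further in, and 2 single sites towards the 3′ end. The promoter windows ran from 38.7% to 58.0% GC, against a median of 52.7% over all 32851 promoter windows in the table, and the sixth had the lowest value. The CRE core TGACG, searched on both strands (CGTCA on the other), was found in 1 of the 7 Bdnf windows, the third, and in 20.8% of all promoter windows. The full CRE, TGACGTCA, which contains that core, was in 0 of the 7 and in 1.79% of all. The GC box GGGCGG, on either strand, was in 2 of the 7, with 2 matches in the second window and 1 in the fourth, and in 35.7% of all. These are matches of letters and do not show binding. The 2 windows at the 5′ end and the first window of the inner group, which holds the CRE core, are shown 5′ to 3′ on the + strand, numbered by position and not by exon name, with the CRE core in capitals where it is present, at chr2:109674450-109674749, chr2:109676782-109677081 and chr2:109692186-109692485 of GRCm38.p6.
Bdnf promoter 1: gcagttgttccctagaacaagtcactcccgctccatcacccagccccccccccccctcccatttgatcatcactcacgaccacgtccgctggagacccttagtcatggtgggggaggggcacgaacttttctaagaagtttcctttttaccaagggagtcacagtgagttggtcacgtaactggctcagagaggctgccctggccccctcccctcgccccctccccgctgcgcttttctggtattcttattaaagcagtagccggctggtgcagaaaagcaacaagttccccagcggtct
Bdnf promoter 2: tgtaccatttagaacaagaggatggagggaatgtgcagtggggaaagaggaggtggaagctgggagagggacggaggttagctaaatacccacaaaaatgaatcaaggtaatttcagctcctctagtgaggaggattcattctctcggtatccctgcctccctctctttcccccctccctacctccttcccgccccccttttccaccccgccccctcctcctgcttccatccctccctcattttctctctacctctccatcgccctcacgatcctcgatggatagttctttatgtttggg
Bdnf promoter 3: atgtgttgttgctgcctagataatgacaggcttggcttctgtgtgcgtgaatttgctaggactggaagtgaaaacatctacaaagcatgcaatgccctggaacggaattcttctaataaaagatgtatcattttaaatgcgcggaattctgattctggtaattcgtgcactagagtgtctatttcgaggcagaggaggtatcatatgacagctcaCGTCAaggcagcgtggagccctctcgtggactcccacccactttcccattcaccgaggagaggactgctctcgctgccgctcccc

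The peak files are on mm9 and these sequences on GRCm38.p6, so which start site lies in which region was not determined. Along the gene, positions are given as distance from the start of the mm9 window, which the 5′ exons come nearest to.

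Depth differed between libraries. Total counts over all regions ran from 36857885 to 83233550 in conditioned and from 36786183 to 66135693 in control libraries, but the 50 regions with most reads took the bulk of them. Outside these 50 there were 4503240 to 14605841 counts in conditioned and 2013469 to 8166103 in control libraries. Control replicates 1 and 3 had a peak with a z score of at least 30 in 24.3% and 25.5% of all regions, against 58.6% to 97.7% in the other 6 libraries. The z score is the authors' own measure of peak strength, whose scaling is not stated, and 5.00 is the lowest value listed. CPM (counts per 1000000) is given with TMM scaling, which sets a region against the bulk of regions.

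The deposited count table held 2 regions in the Bdnf window. The first, called the early region here, spans chr2:109516776-109517771 (995 bp) and begins 11.8 kb into the window. The second, the later region, spans chr2:109533515-109534021 (506 bp) and begins 28.5 kb into the window. They are 15.7 kb apart, whereas the nearest other regions of the table lie 560 kb before the early one and 197 kb after the later one, and the median gap between regions on chromosome 2 was 86.0 kb. Strong peaks outside the table lie nearer. In the 70 kb on either side of the window the highest z reached 82.3, in conditioned replicate 3. The highest z of these stretches exceeded that of the window in conditioned replicates 2 and 3 and control replicates 1, 2 and 3, but not in the other libraries. Both regions are modest members of the table. The authors' mean z was 37.9 in the early region and 50.7 in the later region. In both it equals the mean of the highest z over carriers alone, the libraries with z of at least 30. Libraries with a lower z or no peak are left out, so it is not an average over all libraries. The median over all regions was 58.9, which puts the early and the later region at percentiles 4.98 and 28.8. The carriers differ between regions, so these percentiles do not compare the same libraries. The authors counted 4 libraries as carriers of the early region and 5 as carriers of the later region, and 47.1% of all regions had 4 or 5.

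Across the window the peaks were few, narrow and mostly weak. Conditioned lists held 12, 8, 18 and 27 peaks in replicates 1 to 4, and control lists held 20, 12, 10 and 11. The values of the groups overlap, with conditioned replicate 4 highest and conditioned replicate 2 lowest. Of the 118 peaks, 74 had z below 10 and 10 had z of at least 30, with a median of 8.26 and a range of 5.06 to 68.2. Of these 10 strong peaks, 9 lay in the early or the later region. The exception, chosen here after its value was seen, was a peak of conditioned replicate 1 at chr2:109548209, 43.2 kb into the window, with z of 42.0. Every region of the table has a peak of z of at least 30 in at least 4 libraries. That 9 of the 10 lay in regions follows in part from this. Of all listed peaks, 13063 of 900786 had z of at least 30 in control replicate 1, the smallest share of the 8 lists. In control replicate 2, with the largest share, 59212 of 737374 did.

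**Figure D1:**
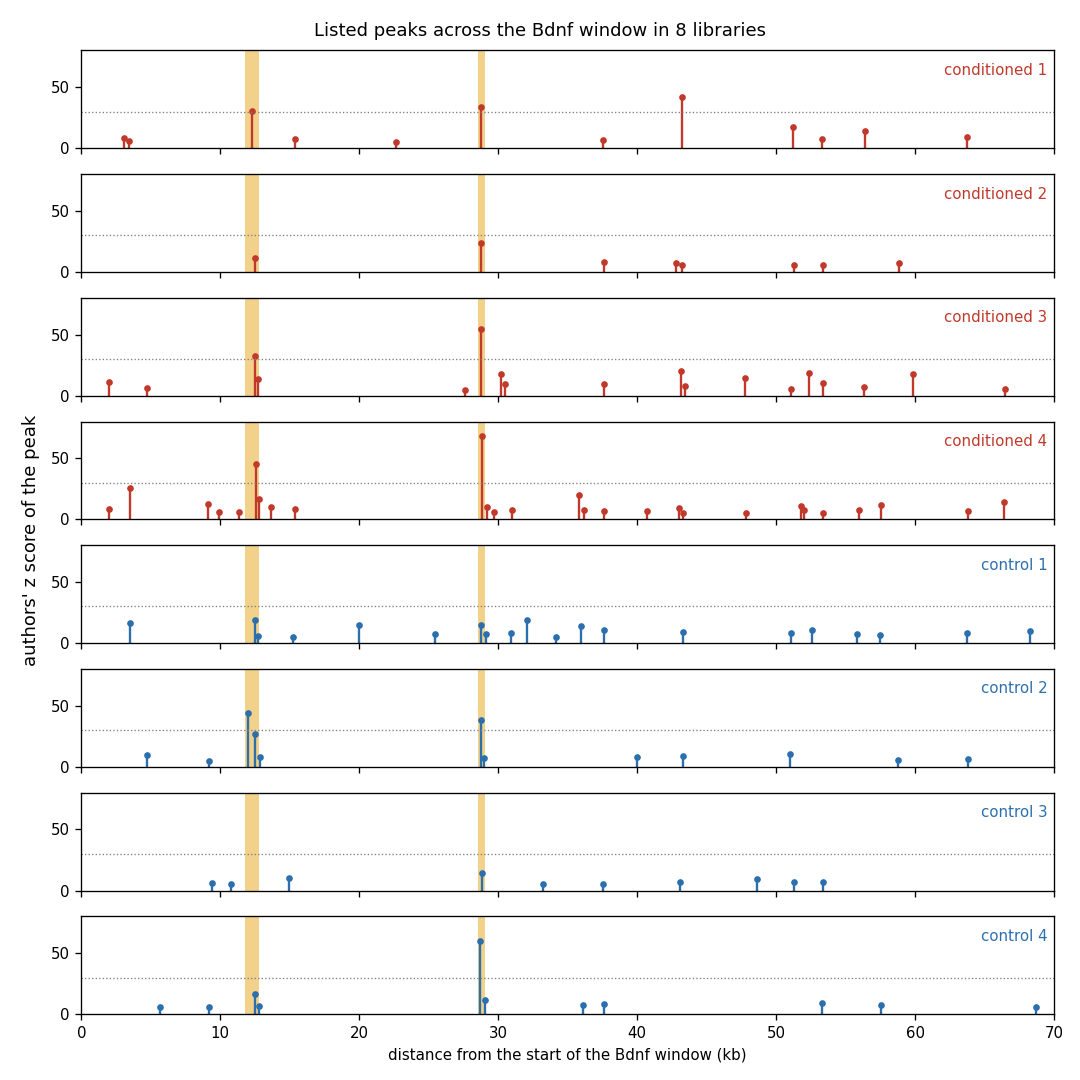
Listed peaks across the 70 kb Bdnf window, 1 panel per library, with the distance from the window's start on the x axis and the authors' z score on the y axis; shaded bands are the early and the later region, and the dotted line marks z of 30. Peaks of z above 30 stand in the bands, apart from 1 in conditioned replicate 1 at 43.2 kb.

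The later region held the only position that all 8 libraries marked. Its highest z was 33.5, 23.4, 54.1 and 68.2 in conditioned replicates 1 to 4, against 15.0, 37.9, 14.02 and 59.7 in control replicates 1 to 4. The groups overlap: 2 control libraries, replicates 1 and 3, were lowest, and control replicate 4 came second of all. It averaged 44.8 ± 20.2 in the conditioned group and 31.7 ± 21.7 in the control group (n = 4 each, SD), and the means differed by 13.1 with an SE of 14.8 (two-sided exact permutation p = 0.4). At z of at least 30 the region was carried by 3 conditioned and 2 control libraries. The peaks lay close together, with starts from 109533715 to 109533821, although each list has its own 50 bp grid.

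The early region was more variable. Its highest z was 30.4, 11.6, 32.1 and 45.1 in conditioned replicates 1 to 4, and 18.8, 44.1 and 16.7 in control replicates 1, 2 and 4, while control replicate 3 had no peak listed there. The groups overlap, and control replicate 2 nearly equalled conditioned replicate 4. With the library without a peak set to 0, it averaged 29.8 ± 13.8 in the conditioned group and 19.9 ± 18.2 in the control group (n = 4 each, SD), and the means differed by 9.91 with an SE of 11.4 (two-sided exact permutation p = 0.457). Control replicate 3 was also 1 of the 2 libraries with few strong peaks anywhere, and the part of this in the result was not tested. The strongest peak of control replicate 2 started at 109516976, and those of the other 6 libraries with a peak started between 109517309 and 109517571. At z of at least 30 the region had 3 conditioned carriers and 1 control carrier. In 81.0% of all 11304 regions the conditioned carriers outnumbered the control carriers at this z, so the same lead in the early and the later region is near the background.

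Peaks of the 8 lists that overlapped or touched were merged, which gave 72 merged peaks, 54 of them in a single library. Only 4 were carried by at least 6 libraries. They began 12.3 kb (6 libraries), 28.7 kb (8 libraries), 37.5 kb (7 libraries) and 52.5 kb (7 libraries) into the window. The first lies in the early and the second in the later region. At 12.3 kb the peak of conditioned replicate 4, of z 45.1, began just beyond the merged span and was not joined to it, so that library is shown as having none there. The other 2 recurred in nearly every library but were weak.

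At 37.5 kb the z was 6.79, 7.89, 9.31 and 6.63 in conditioned replicates 1 to 4 and 10.7, 5.52 and 8.32 in control replicates 1, 3 and 4, with none listed in control replicate 2. At 52.5 kb the z was 7.25, 5.40, 10.5 and 5.49 in conditioned replicates 1 to 4 and 10.7, 7.13 and 9.08 in control replicates 1, 3 and 4, again with none in control replicate 2. These 2 positions were thus carried by all 4 conditioned and by 3 of 4 control libraries, at levels that overlap. In control replicate 1 the peak at 52.5 kb was 850 bp wide, the widest in the window. Of the 4 recurrent peaks, 0 differed between the groups in highest z (exact permutation test, Benjamini-Hochberg over 4, with unadjusted p from 0.4 to 0.914 and 0 below 0.05). For the peak at 12.3 kb this test set conditioned replicate 4 to 0, although its peak began just beyond the span.

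**Figure D2:**
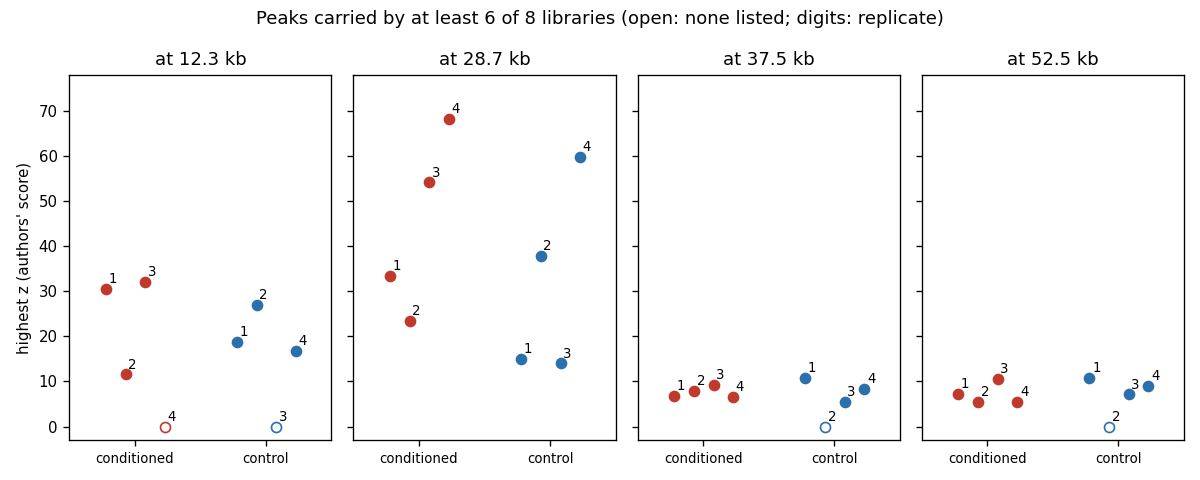
Highest z (authors' score) in each library for the 4 merged peaks carried by at least 6 of 8 libraries, titled by their distance from the window's start; open circles at 0 mark libraries with no peak in the merged span, and digits give the replicate. At 28.7 kb all 8 libraries have a peak, between 14.02 and 68.2, and the groups overlap in every panel.

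When peaks within 100 bp were joined, 2 further places reached 6 libraries, at 43.0 and 51.0 kb. At 43.0 kb, 7 libraries had a peak, with a highest z of 42.0, 5.95, 20.4 and 9.51 in conditioned replicates 1 to 4 and 9.06, 8.97 and 7.11 in control replicates 1 to 3. Control replicate 4 had none. Of the conditioned libraries, replicate 2 was below 3 of the controls, so the groups overlap. With a library without a peak set to 0, the mean was 19.5 ± 16.2 after conditioning and 6.28 ± 4.29 in the controls (n = 4 each, SD), 13.2 apart with an SE of 8.40 (two-sided exact permutation p = 0.2; 0.6 after Benjamini-Hochberg adjustment over 6 recurrent peaks). At 51.0 kb, 3 conditioned and 3 control libraries had a peak, with a highest z of 17.4, 5.40 and 5.58 in conditioned replicates 1 to 3 and 8.64, 10.9 and 7.13 in control replicates 1 to 3, and none in replicate 4 of either group. The groups overlap there too, with a mean of 7.10 ± 7.34 after conditioning and 6.65 ± 4.69 in the controls (n = 4 each, SD; two-sided exact permutation p = 0.971, and 0.971 after adjustment). In the same joining, the peak at 12.3 kb was carried by 7 libraries, all but control replicate 3. Conditioned replicate 2, at 11.6, was below control replicates 1, 2 and 4, at 18.8, 26.9 and 16.7, so the groups overlap. With control replicate 3 set to 0, the mean was 29.8 ± 13.8 after conditioning and 15.6 ± 11.3 in the controls (n = 4 each, SD). The means were 14.2 apart with an SE of 8.93 (two-sided exact permutation p = 0.2, and 0.6 after adjustment).

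Cut into 14 bins of 5 kb, the window had peaks in all 8 libraries in 4 bins, those that begin 10, 25, 35 and 50 kb from its start. The bin from 20 to 25 kb, between the regions, was the emptiest, with a peak starting there in 1 library. Towards the 3′ end, the bins from 60 kb on had peaks in 4 libraries each, with z up to 14.5. The largest covered share in any bin was 19.0% for control replicate 1 in the bin from 50 kb, which holds the wide peak. The lowest p belonged to the bin from 40 to 45 kb, where peaks covered 2.00% ± 0.816 in the conditioned group and 0.88% ± 0.636 in the control group (n = 4 each, SD; exact permutation p = 0.114). By the exact permutation test 0 of 14 bins differed after adjustment, with a Benjamini-Hochberg value of 1.0 in each, and 0 had an unadjusted p below 0.05.

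The read counts were used to compare the signal of each region after training with that in controls. In the early region the counts were 215, 200, 299 and 366 in conditioned replicates 1 to 4, against 108, 361, 25 and 75 in control replicates 1 to 4. Control replicate 3 rested on 25 reads, and control replicate 2 nearly matched the highest conditioned library. In TMM-scaled CPM these were 2.65, 4.54, 2.59 and 2.18 in conditioned and 4.92, 3.91, 1.33 and 1.26 in control replicates 1 to 4. Control replicate 1 lay above all conditioned libraries and control replicates 3 and 4 below all of them, so the groups overlap. The mean was 2.99 ± 1.05 CPM after conditioning and 2.86 ± 1.85 CPM in the controls (n = 4 each, SD), with a log2 fold change of 0.06 (SE 0.57, 95% interval -1.14 to 1.27; edgeR's quasi-likelihood test, Benjamini-Hochberg adjusted p = 0.992). The place of control replicate 1 depended on the scaling, as its TMM factor of 0.332 was the lowest of a range up to 2.01. With region totals alone it was at 1.63 CPM, below all conditioned libraries (2.83 to 5.43 CPM). Control replicate 2, at 5.69 CPM, was then above all of them, so the groups overlap there too.

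In the later region the counts were 346, 106, 402 and 542 in conditioned replicates 1 to 4, against 69, 275, 44 and 397 in control replicates 1 to 4. In TMM-scaled CPM these were 4.27, 2.41, 3.48 and 3.24 in conditioned and 3.14, 2.98, 2.35 and 6.68 in control replicates 1 to 4. Control replicate 4 was the highest and control replicate 3 the lowest of all 8, so the conditioned values fall within the range of the controls. The mean was 3.35 ± 0.767 CPM after conditioning and 3.79 ± 1.96 CPM in the controls (n = 4 each, SD), with a log2 fold change of -0.18 (SE 0.50, 95% interval -1.25 to 0.88; edgeR's quasi-likelihood test, Benjamini-Hochberg adjusted p = 0.961).

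Intervals this wide leave sizeable changes in either direction undetected at this depth and number of libraries. Neither region passed the test: 0 of 2 had an adjusted p below 0.05 in edgeR, where 0.0% of all 11304 regions did, and neither had an unadjusted p below 0.05, where 7.79% did. DESeq2's Wald test, which called 40 regions in the whole table, called neither (adjusted p = 0.996 for the early and 0.955 for the later region). Groups that do not overlap, with all conditioned libraries higher, occurred in 1.5% of all regions, and with all of them lower in 0.902%, but in neither Bdnf region. The direction of both estimates depended on single libraries. Without control replicate 4 the log2 fold change was -0.22 in the early and 0.22 in the later region. Without conditioned replicate 2 it was -0.21 and without control replicate 3 it was -0.20 in the early region. With scaling by region totals alone, under which the median of all regions was 0.75 where it was -0.05 with TMM, the log2 fold change was 0.83 in the early and 0.52 in the later region, near that median.

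**Figure D3:**
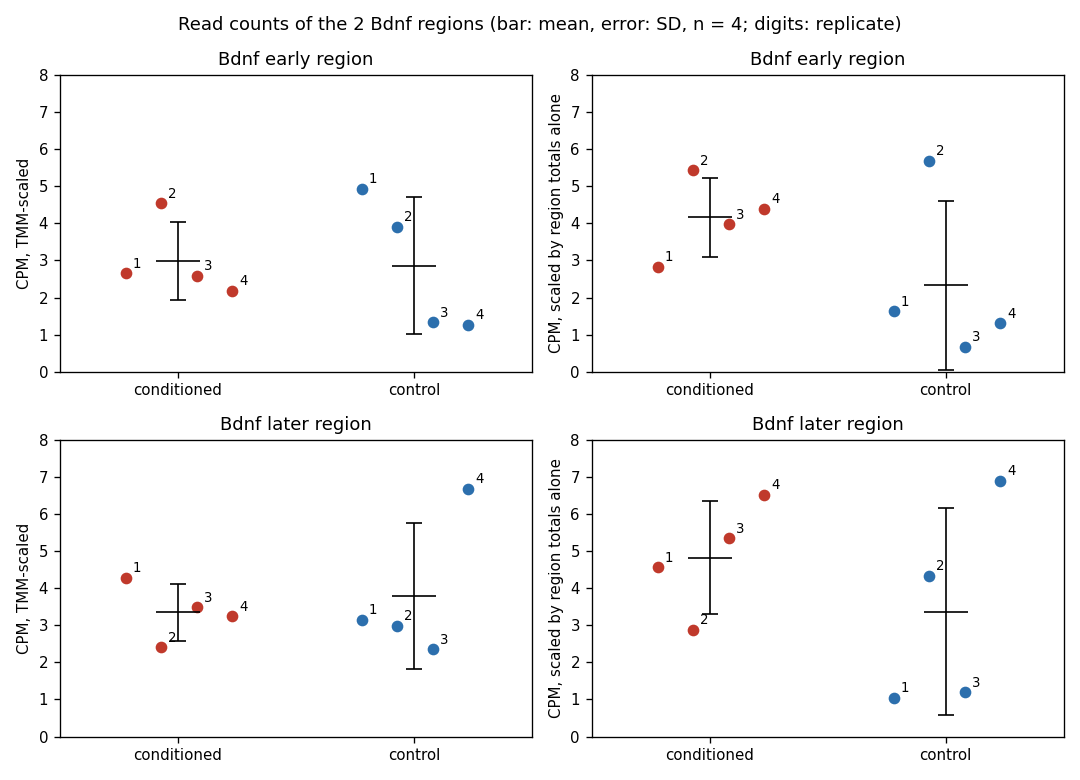
CPM of the early region (top) and the later region (bottom) in each library, with TMM scaling on the left and scaling by region totals alone on the right; points are libraries with their replicate digit, black bars the mean and the SD (n = 4 each). With TMM scaling the conditioned points of the later region lie within the control range of 2.35 to 6.68 CPM, and with totals alone control replicates 1 and 3 are at 1.04 and 1.20 CPM there, below the other 6 libraries.

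The rank of a region among all regions of the same library needs no scaling between libraries. The early region stood at percentiles 10.3, 35.8, 13.5 and 12.4 of the count in conditioned replicates 1 to 4, and at 37.0, 29.1, 4.10 and 4.42 in control replicates 1 to 4. It was higher than the other conditioned libraries in replicate 2 and split the controls into a high and a low pair. The later region stood at percentiles 30.5, 14.7, 23.8 and 22.4 in conditioned replicates 1 to 4, and at 19.6, 18.5, 13.6 and 53.1 in control replicates 1 to 4. Control replicate 4 alone placed it above the middle of the table. The mean percentile differed by -0.623 in the early region (SE 10.3; exact permutation p = 0.971) and by -3.39 in the later region (SE 9.61; exact permutation p = 0.914, both two-sided, n = 4 each, conditioned minus control). The early region was thus below the middle of the table in 8 of 8 libraries and the later region in 7 of 8. These ranks use counts not divided by length. The median region spans 858 bp, the later region is shorter (506 bp) and the early one longer (995 bp). The part of length in the ranks was not tested.

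The early and the later region did not keep a fixed proportion. The later region took 61.7%, 34.6%, 57.3% and 59.7% of the reads of both in conditioned replicates 1 to 4, and 39.0%, 43.2%, 63.8% and 84.1% in control replicates 1 to 4. The 95% Clopper-Pearson interval, for counting error alone, was 29.3% to 40.3% in conditioned replicate 2, while those of the other 3 conditioned libraries began at 53.6% or above. It was 80.5% to 87.3% in control replicate 4, while those of the other 3 controls ended at 75.0% or below. The log2 ratio of later to early counts averaged 0.19 ± 0.75 after conditioning and 0.55 ± 1.39 in the controls (n = 4 each, SD), -0.35 apart with an SE of 0.79 (two-sided exact permutation p = 0.686). Without control replicate 4 that difference was 0.27, and without conditioned replicate 2 it was 0.01. Per base the later region was the denser one in all 8 libraries, by 1.04 to 3.16 times in conditioned and by 1.26 to 10.4 times in control libraries.

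**Figure D4:**
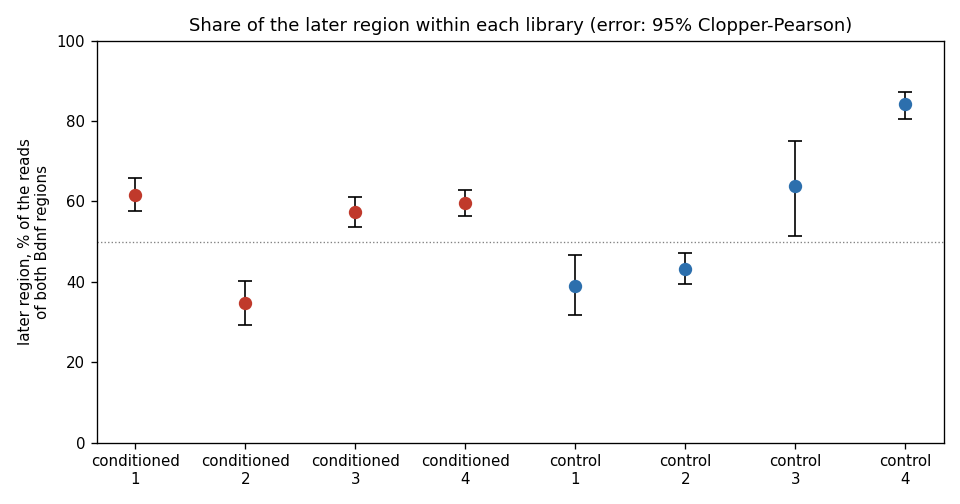
Share of the later region in the reads of both Bdnf regions, in percent, for each library, with 95% Clopper-Pearson intervals (counting error only); the dotted line marks 50%. Conditioned replicate 2 is lowest at 34.6% and control replicate 4 highest at 84.1%, and the groups overlap.

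The course over the 8 libraries was compared between regions. Measured as the root mean square difference of mean-centred log2 CPM over 8 samples, the early region was 0.84 from the later one, against a median of 0.71 for all other regions. The region most like the later one was chr19:8326265-8327265 (0.15), with 4.91 ± 0.983 CPM after conditioning and 6.42 ± 3.36 CPM in the controls (n = 4 each, SD). It was followed by chr5:33773007-33774257 (0.15), chr2:172553776-172554385 (0.17), chr4:151368472-151371030 (0.17) and chr7:20105113-20105623 (0.17), whose log2 fold changes ran from -0.18 to 0.05. They were picked as the nearest of 11304 regions, so their closeness follows from the selection.

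Over the whole window, peak measures did not differ between groups beyond the spread of libraries. Of every 1000000 listed peaks, the window held 20.6 ± 5.29 after conditioning and 20.4 ± 2.79 in the controls (n = 4 each, SD), 0.174 apart with an SE of 2.99 (exact permutation p = 1.0, and 1.0 after Benjamini-Hochberg adjustment over 3 measures). Listed peaks covered 1.29% ± 0.62 of the window after conditioning and 1.27% ± 0.966 in the controls (n = 4 each, SD). Of every 1000000 bases covered by a list, this came to 7.83 ± 2.10 bases after conditioning and 8.44 ± 2.43 bases in the controls (n = 4 each, SD; exact permutation p = 0.6, adjusted 0.9). The highest z anywhere in the window was 42.0, 23.4, 54.1 and 68.2 in conditioned replicates 1 to 4, against 18.8, 44.1, 14.02 and 59.7 in control replicates 1 to 4. The means lay 12.8 apart with an SE of 14.4 (exact permutation p = 0.4, adjusted 0.9), and all 3 tests were two-sided. The control values fell into a low pair, replicates 1 and 3, and a high pair, so the groups overlap. With 4 libraries against 4 the smallest p of these tests is 0.0286.

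The clearest feature of the Bdnf window was how it differed from its surroundings, which was seen in all 8 libraries. It was set against the 2 adjoining stretches of the same 70 kb span. Peaks covered 1.14%, 0.571%, 1.36% and 2.07% of the window in conditioned replicates 1 to 4, and 2.71%, 0.857%, 0.714% and 0.786% in control replicates 1 to 4. In the flanks they covered 4.11%, 2.11%, 5.25% and 4.29% in conditioned replicates 1 to 4 and 6.64%, 3.77%, 2.46% and 2.11% in control replicates 1 to 4. Covered share was lower in the window in 8 of 8 libraries, with 1.28% ± 0.752 in the window and 3.84% ± 1.60 in the flanks (SD, n = 8), a mean of -2.56 percentage points for window minus flanks (exact sign-flip permutation p = 0.00781, the smallest that 8 libraries can give). The window-minus-flanks difference was -2.65 ± 1.01 points after conditioning and -2.48 ± 1.18 points in the controls (n = 4 each, SD; exact permutation p = 0.83). The 8 libraries come from the same genome, so the test speaks for the libraries and not for how often other windows of the genome would differ as much.

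The number of peaks per window was lower than in either flank in 6 of 8 libraries, the exceptions being conditioned replicates 2 and 4. Their width differed more. Of the 118 peaks in the window, 112 (94.9%) were a single 50 bp step, against 226 of 293 (77.1%) in the flanks. The share of single-step peaks was higher in the window than in the flanks in 8 of 8 libraries, by 18.3 percentage points on average (SE 1.89), and higher than in the whole list in 8 of 8, by 17.7 points (SE 1.62; exact sign-flip permutation p = 0.00781 in both, n = 8). Against chromosome 2 as a whole the window was poor in peaks, with 21.1 ± 9.12 against 29.4 ± 9.84 per 100 kb (SD, n = 8; lower in 8 of 8 libraries, exact sign-flip permutation p = 0.00781). These 3 comparisons were chosen after the data had been seen, and the Benjamini-Hochberg value over them and the covered share was 0.00781.

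**Figure D5:**
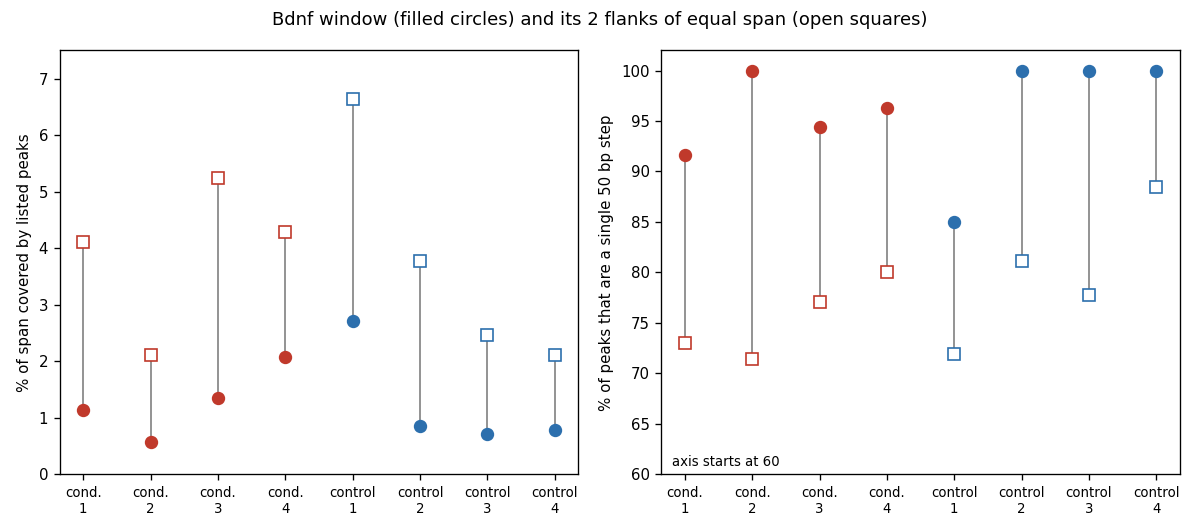
The Bdnf window (filled circles) and its 2 flanks of equal span combined (open squares) in each library: on the left the percent of the span covered by listed peaks, on the right the percent of peaks that are a single 50 bp step (axis from 60%). The window is below the flanks on the left and above them on the right in all 8 libraries.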

How the data were processed

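Sono-seq libraries of 8 mouse hippocampus samples were analysed from the deposited files. The submitters' processing notes name Bowtie2 and the build mm9. How peaks were called, how reads were counted, and whether duplicates or reads with several matches were removed is not given in the sources used here. The count table held raw counts per region as deposited by the authors, without normalisation. The peak lists and the region table held z scores by the authors, per the file headers, with 1 list per sample, and the number of carriers per region (4 to 8) equalled the libraries with an overlapping peak of z of at least 30 in all 11304 regions. By this rule, libraries with more peaks of that z weigh more in which regions are listed.

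Counts were tested with edgeR 4.0.16 (R 4.3.3; quasi-likelihood, TMM factors, group as the only term, two-sided, Benjamini-Hochberg over all 11304 regions, threshold 0.05); filterByExpr removed 0 regions. The SE is the log2 fold change over the root of F, and the 95% interval uses the t quantile with the test's degrees of freedom, 15.4. Single values were compared by exact permutation of the groups (70 arrangements) or exact sign flips over libraries, in Python 3.11.15 with scipy 1.17.1. A listed end was taken as the start of its last 50 bp step, so each peak was extended by that length. The functions were tested on simulated data. Among regions drawn from the whole table and changed by a known factor, edgeR called 0% of 1.5-fold and 4% of 2-fold changes. It called 34% of 4-fold and 96% of 8-fold changes (adjusted p below 0.05, 50 regions per factor). Positions are printed as the files give them, whether counted from 0 or 1. Alternatives were other factors, DESeq2 1.42.0, limma 3.58.1 (voom), other filters, z minimums of 10 and 30, a replicate block, and leaving out each sample.

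The regions named are all those in the window, the merged peaks in at least 6 libraries, and the 5 regions nearest in course to the region with most counts (log2 CPM with 0.5 added). The window and the tests were chosen with earlier results of these data known. The region ratio, percentiles, z within regions, single-step share and peak density were added later. No mm9 annotation was used here, so markers of hippocampal cells were not checked. The labels do not say whether each library is 1 animal, so p-values measure only the spread between these samples, which may be partly technical.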

Additional observations from a re-analysis of the deposited data

Results flagged for a closer look

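The highest or lowest of 4 libraries was set against the range of its group for the measures of the Bdnf window. 30 groups of 4 values were examined, and chance gives about 1 in 20. In 3 groups the gap of 1 library to its neighbour exceeded the 5% limit for groups of this size. Control replicate 2 had 16.3 peaks of the window per 1000000 listed peaks, against 21.3 to 22.2 in the other controls. Conditioned replicate 2 placed the early region at percentile 35.8 of its counts, where conditioned replicates 1, 3 and 4 had 10.3 to 13.5. Control replicate 4 placed the later region at percentile 53.1 of its counts, against 13.6 to 19.6 in the other controls. The percentiles were examined after their values had been seen.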

How the results depend on the processing

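The adjusted p of the early region ranged from 0.545 to 0.999 and that of the later region from 0.679 to 0.999 over 18 alternatives each, and no alternative called either. Using no filter, or asking for at least 50 counts in 4 samples, kept all 11304 regions. These alternatives therefore repeated the main result and could not differ from it. Without 1 library in turn, the log2 fold change ranged from -0.22 to 0.44 in the early and from -0.37 to 0.22 in the later region; with region totals alone the later region had 0.52. Without control replicates 1 and 3, chosen after seeing the data, it was 0.19 in the early and -0.54 in the later region. With the replicate block the log2 fold changes were 0.27 and -0.09 and the window's highest z differed by 12.8 (exact sign-flip p = 0.375). The labels give both groups the same numbers without saying what they mark. The numbers were therefore not taken as pairs in the main test. Libraries of equal number deviated together with correlations of 0.165, 0.043, -0.06 and 0.269, and 2 of 4 correlated best with their own number. With only 4 numbers this cannot decide whether they mark pairs.

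Without 1 library, the difference in peaks per 1000000 listed ranged from -2.11 to 2.13, in bases per 1000000 covered from -1.58 to 0.534, in highest z from 5.68 to 21.3, in the log2 ratio of the regions from -0.75 to 0.27, in count percentile from -6.54 to 5.49 (early) and from -7.60 to 5.56 (later), and in z from 3.28 to 18.0 (early) and from 5.32 to 22.5 (later). Counting peaks with z of at least 30 alone, per 1000000 such peaks, the difference was 22.02 (3, 0, 2 and 2 peaks in conditioned and 0, 2, 0 and 1 in control replicates 1 to 4; exact permutation p = 0.286), against 0.174 with all peaks. The covered length turned to a difference of 12.5 bases unscaled and of 10.0 bases per 1000000 at z of at least 30; the cause was not tested. With z of at least 10, 2 peaks rather than 4 recurred, by construction the weak ones being left out, and joined within 100 bp there were 6. The gap to the flanks stayed between -2.74 and -2.37 without 1 library, and was -1.43 at z of at least 10 and -2.51 with flanks of 35 kb. Without 1 library the exact sign-flip p was 0.0156 each time, the smallest the test can then give. As all libraries had the same sign, that p was fixed beforehand. Low counts, down to 25 reads, limit the early region, and the spread of the controls limits both.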
